A study of Homo sapiens with 4 samples.

Results

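The regions described here lie at the ends of protein-coding genes and hold a peak of p53 ChIP-seq in both libraries numbered 2 and in neither library numbered 1. The cells were H1299, an established human lung carcinoma line with the genotype p53-/-. They expressed wild-type p53 (p53WT, libraries 1 and 2) or the mutant named CASM34 in the labels (libraries 1 and 2), and both groups share the same p53-null background. How p53 was expressed, and whether libraries of a group came from separate cultures, is not given in the sources used here. Chromatin was digested by micrococcal nuclease and then sonicated, per the labels' protocols, and was precipitated with DO-1, an antibody that binds the N-terminal part of p53.

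The members were chosen by the deposited peak lists themselves. Peaks of the 4 libraries on chromosomes 1 to 22 and X were merged by an overlap of at least 1 bp into 7727 regions. Of these, 589 held a peak of p53WT 2 and of CASM34 2 and none of p53WT 1 or CASM34 1. In 339 of the 589 regions (57.6%, 95% interval 53.4 to 61.6), the midpoint lay within 1 kb of either end of a RefSeq protein-coding gene, and these are the members. On these chromosomes the number 2 lists were the longer ones, with 4946 (p53WT) and 3196 (CASM34) peaks against 1591 and 1698 in the number 1 lists. Presence in the number 2 lists and absence from the number 1 lists is therefore the rule and not a finding. The read depth is unknown, and where no peak was listed p53 may still have been bound. Intervals given here are exact (Clopper-Pearson) and cover counting error only.

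p53 is a transcription factor that binds DNA as a tetramer at response elements built from a pair of half-sites, and it activates genes of cell cycle arrest, apoptosis, DNA repair and metabolism. Many of its well-known elements lie in introns or some way upstream of the start. Promoters of widely expressed genes are mostly rich in G, C and CpG and are open chromatin in most cells.

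Promoter sequence is shown first for members with named roles, because the regions lay at or just inside annotated gene starts. Each is the 250 bases before the annotated start on the gene's own strand, 5′ to 3′, from RefSeq (GRCh38.p14), and each meets its region by at least 30 bases. RPS27L, a direct p53 target that encodes a ribosomal protein S27 paralog, is shown from chr15:63157478-63157727 (minus strand), with a p53-like match in capitals. LRRK2, a large kinase gene, is shown from chr12:40224747-40224996 (plus strand), with the 2 half-site matches in capitals. The matches in RPS27L and LRRK2 each have 3 mismatches over 20 positions, the most allowed. Matches at that limit or closer were in 12.7% of all promoters.
RPS27L: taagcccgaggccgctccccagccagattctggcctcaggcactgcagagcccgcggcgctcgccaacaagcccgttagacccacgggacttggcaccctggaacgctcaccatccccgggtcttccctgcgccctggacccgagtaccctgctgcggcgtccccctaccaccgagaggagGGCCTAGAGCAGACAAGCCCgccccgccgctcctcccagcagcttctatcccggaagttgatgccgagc
LRRK2: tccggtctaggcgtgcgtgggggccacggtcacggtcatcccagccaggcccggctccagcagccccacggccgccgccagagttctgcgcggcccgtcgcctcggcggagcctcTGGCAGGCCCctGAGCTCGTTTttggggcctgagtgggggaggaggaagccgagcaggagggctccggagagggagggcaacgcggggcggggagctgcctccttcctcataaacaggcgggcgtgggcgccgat
FBXO30, which encodes an F-box protein of a ubiquitin ligase, is shown from chr6:145814796-145815045 (minus strand). PERP, a p53 target of the cell membrane linked to apoptosis, is shown from chr6:138107420-138107669 (minus strand). Capitals in both mark GGGCGG on either strand, the core of the GC box, which occurred 5 times in each sequence. ULK2, an autophagy kinase gene, held no GGGCGG in chr17:19867937-19868186 (minus strand).
FBXO30: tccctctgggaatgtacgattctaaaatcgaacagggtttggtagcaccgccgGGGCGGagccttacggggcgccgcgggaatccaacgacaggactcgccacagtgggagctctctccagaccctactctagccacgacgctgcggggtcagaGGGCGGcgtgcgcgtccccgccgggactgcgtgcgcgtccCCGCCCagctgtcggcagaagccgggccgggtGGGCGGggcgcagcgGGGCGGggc
PERP: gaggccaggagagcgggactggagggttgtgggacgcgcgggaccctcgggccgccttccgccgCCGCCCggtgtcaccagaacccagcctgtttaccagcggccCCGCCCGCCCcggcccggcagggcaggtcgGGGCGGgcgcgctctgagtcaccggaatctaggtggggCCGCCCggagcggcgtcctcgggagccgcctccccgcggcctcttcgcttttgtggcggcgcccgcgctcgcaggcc
ULK2: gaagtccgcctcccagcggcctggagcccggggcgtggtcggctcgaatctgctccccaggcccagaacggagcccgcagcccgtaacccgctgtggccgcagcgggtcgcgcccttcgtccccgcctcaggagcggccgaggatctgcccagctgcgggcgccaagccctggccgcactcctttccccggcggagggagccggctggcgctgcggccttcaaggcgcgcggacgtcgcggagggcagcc
A different kind of sequence stood before the uncharacterised gene LOC124901645, at chr7:63752098-63752347 (plus strand). It is shown because it is a tandem repeat, with 141 distinct words of 12 bases among 239 positions, against 239 of 239 in RPS27L, LRRK2, PERP and ULK2. It held 9 CpG dinucleotides, against 31 in FBXO30 and 34 in PERP.
LOC124901645: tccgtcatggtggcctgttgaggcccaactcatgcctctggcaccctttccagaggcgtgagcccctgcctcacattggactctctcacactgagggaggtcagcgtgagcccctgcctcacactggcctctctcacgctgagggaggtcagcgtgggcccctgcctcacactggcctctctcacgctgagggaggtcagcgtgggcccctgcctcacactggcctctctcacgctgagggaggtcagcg

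Where the strand of the gene was known, nearly all members lay at gene starts. The strand of the gene with the nearest end was known for 250 of the 339 members, and 246 of these 250 (98.4%, 95% interval 96.0 to 99.6) were nearest to a start. The 4 others were nearest to an end, and of these only the region at NPIPB4 had no start within 1 kb, with its midpoint 985 bp from the end. The regions at H3C14, H3C10 and SCAND1, the first 2 being histone H3 genes, also had a start within 1 kb. For the remaining 89 members the strand was not used here, so start and end could not be separated. These are all 44 members on chromosome 8 and 45 on other chromosomes, so the results on starts, positions and promoters hold no member of chromosome 8. Gene-end regions of a single number 2 library were placed much alike. A start was nearest in 1023 of 1058 (96.7%) of those in p53WT 2 only and in 543 of 565 (96.1%) of those in CASM34 2 only, and the difference was not tested.

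Relative to the annotated start, the regions sat just inside the gene rather than upstream of it. The start used is the outermost annotated coordinate of the gene. Starts of its other transcripts were not used, so a region counted as downstream may lie at or before one of those. Of 252 members with a known start within 1 kb, 225 (89.3%, 95% interval 84.8 to 92.8) had their midpoint downstream of the start and 27 upstream. The median midpoint was 231 bp into the gene, with quartiles at 142 and 379 bp. The bins from 100 to 200, 200 to 300 and 300 to 400 bp held 50, 56 and 41 regions, while the bin from 0 to 100 bp held 21. The region covered the start itself in 70 of 252 (27.8%, 95% interval 22.3 to 33.7). Summits, which the authors' caller placed within each peak, lay at a median of 210 bp into the gene in p53WT 2 and 230 bp in CASM34 2. Among regions with a known start, the midpoint was downstream in 81.5% of the 1038 in p53WT 2 only (95% interval 79.0 to 83.8) and in 83.4% of the 561 in CASM34 2 only (80.1 to 86.4). Their medians were 197 and 241 bp. Members are merged from at least 2 peaks and are wider, with a median of 411 bp against 231 and 223 bp, which bears on how often a region covers a start.

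**Figure D1:**
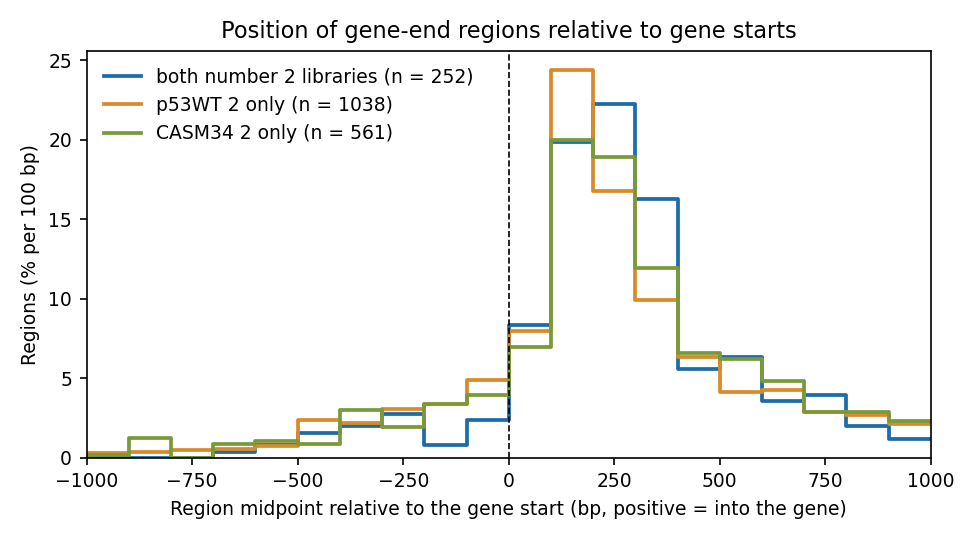
Position of the region midpoint relative to the gene start (horizontal axis, bp, positive into the gene) against the percent of regions per 100 bp bin, for the 252 members with a known start and for gene-end regions in p53WT 2 only (1038) or CASM34 2 only (561). All 3 curves peak between 100 and 300 bp into the gene.

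The 1 kb limit left out 250 of the 589 shared regions. Of the 339 members, 155 lay within 250 bp of an end, 270 within 500 bp and 314 within 750 bp, and 20 further shared regions lay between 1 and 2 kb away. The members nearest to the limit were at PAXIP1 (989.5 bp, −log10 q 2.23 in p53WT 2 and 2.80 in CASM34 2) and TAOK3 (1000 bp, 2.14 and 3.05). Just outside it were regions at IAH1 (1018 bp, 2.71 and 3.78) and ZCCHC2 (1051 bp, 3.24 and 5.80).

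Peaks of the members were of moderate height in both lists. The fold is the signal over background and q the adjusted p-value, both as the authors deposited them. In p53WT 2 the members' −log10 q ran from 1.31 to 13.1 with a median of 3.12, and their fold from 2.64 to 8.998 with a median of 4.89. In CASM34 2 the −log10 q ran from 1.33 to 11.2 with a median of 3.18, and the fold from 2.21 to 8.90 with a median of 4.72. By rank of −log10 q within each whole list, the median member stood at percentile 52.8 in p53WT 2 and 40.1 in CASM34 2. Only 1 member passed percentile 90 in either list. Gene-end regions of 1 list alone had a median percentile of 38.6 in p53WT 2 and 31.7 in CASM34 2. Both values of −log10 q were at least 3 in 105 members, under 3 in 79, and at least 5 in 13. Low-ranked members, at RAB2A, RBM25, EI24 and FTH1, had −log10 q between 1.31 and 1.46 in p53WT 2 and between 1.39 and 1.64 in CASM34 2, close to the smallest value in each list.

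The deposited values took repeated levels. In p53WT 2, 153 of the 339 members shared their −log10 q with another member, and 23 stood at 1.35. In CASM34 2, 116 did so, and 19 stood at 2.57. The plot of the paired values shows these levels as columns and rows of points.

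**Figure D2:**
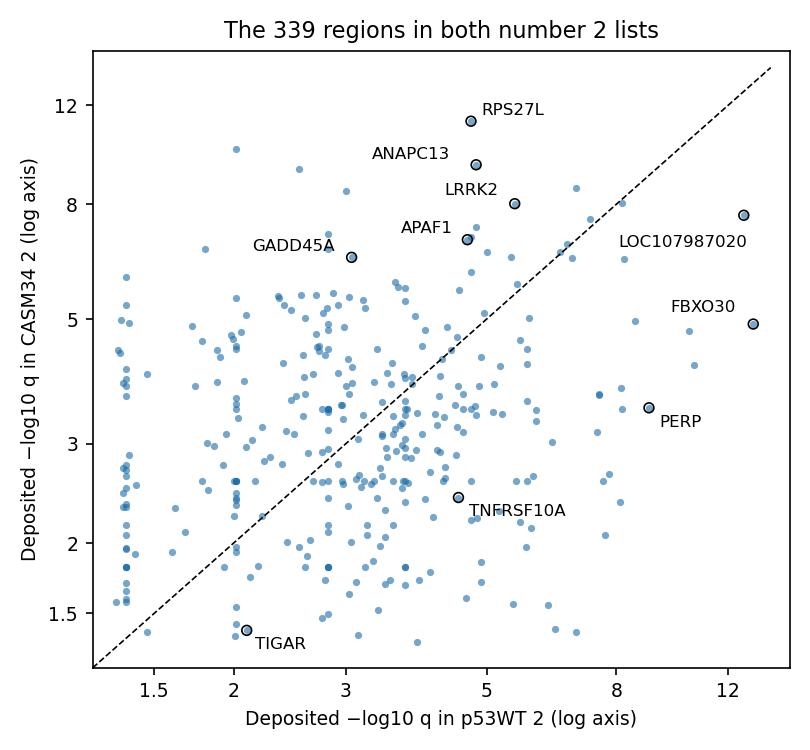
Deposited −log10 q of each of the 339 members in p53WT 2 (horizontal, log axis) and CASM34 2 (vertical, log axis), with equality dashed and selected genes circled. Points lie on both sides of the line, with p53WT 2 higher in 164 of 339.

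The order of members by height differed between the lists. Across the 339 members, Spearman's rho of −log10 q was 0.17 and Pearson's r 0.23, and rho of the fold was 0.20. These describe regions within a pair of libraries, and regions are not independent replicates. The rule keeps only overlapping peaks, so the distance between their summits is a description. Summits lay a median of 84 bp apart (quartiles 36.5 and 190 bp, highest 655 bp). In 122 members the summits were within 50 bp and in 191 within 100 bp. The overlap covered a median of 89.4% of the shorter peak.

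Of the 12 best-ranked members, only that at RPS27L lay at a gene of the p53 target lists. The region of PEX39, a peroxisome biogenesis gene (chr6:42890532-42890817), which RPL7L1 shares, had a −log10 q of 8.18 in p53WT 2 and 8.05 in CASM34 2, with folds of 7.23 and 6.87. At DNAJC25, which encodes a membrane protein of the DnaJ chaperone family (chr9:111631344-111631612), the −log10 q was 6.91 and 8.56. The region at DHX32, a helicase gene, and FANK1 (chr10:125895930-125896322) had 8.23 and 6.41. All 3 regions stood above 6 in both lists.

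Other leading members were uneven in −log10 q, which is not scaled for the different length and unknown depth of the lists. FBXO30 (chr6:145814323-145814832) had the highest −log10 q of any member in p53WT 2, 13.1 with a fold of 8.998, against 4.90 and 5.71 in CASM34 2. Its midpoint lay 218 bp into the gene, and it covers 37 of the bases printed above. LRRK2 (chr12:40224539-40225130) had a −log10 q of 5.54 in p53WT 2 and 8.02 in CASM34 2, and its midpoint lay 163 bp upstream of the start, over the printed sequence. ANAPC13, a subunit of the anaphase-promoting complex, shares a region with CEP63, a centrosome gene (chr3:134486232-134486656, 4.81 and 9.41). WDFY1, an endosomal protein gene (chr2:223944722-223945299), had 6.81 and 6.41. By percentile within each list, LRRK2 (77.1 in p53WT 2 and 74.9 in CASM34 2) and ANAPC13 (74.0 and 77.9) were closer to even. FBXO30 (90.1 and 62.0) and WDFY1 (81.7 and 69.6) stood higher in p53WT 2.

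Several leading members are in copies or families of near-identical genes, where reads can be split or shared between copies, and are uncertain. LOC107987020 held 2 members, the stronger with a −log10 q of 12.7 in p53WT 2 and 7.65 in CASM34 2. USP17L17, of a deubiquitinase cluster, had 7.27 and 7.54, and NOTCH2NLA, of a duplicated NOTCH2-like family, had 6.52 and 6.59. NPIPB4, GTF2IRD2B, H3C14 and H3C10 belong to such families too. The region at LOC124901645, with the repeat printed above, had 4.82 and 7.29. The genes at members included 16 with LOC symbols.

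Distances to number 1 peaks are a description, because the rule excludes overlap and no share over other regions is given. The nearest number 1 peak lay within 1 kb of 10 members, within 10 kb of 15 and within 100 kb of 29. The median distance was 1578 kb. Those within 1 kb included both regions of LOC107987020 and the regions at JUN, a transcription factor gene (438 bp), and REV3L, the catalytic subunit of a translesion DNA polymerase (270 bp).

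Direct p53 targets were few in number among the members. The share of listed targets with a member was above that of all genes, as it was in the single-list sets. The members lay at 389 of 19970 protein-coding genes (1.95%), and 9 of 99 listed direct targets had a member (9.09%, 95% interval 4.24 to 16.6). Gene-end regions in p53WT 2 only lay at 7.07% of all genes and 12 of the 99 targets, those in CASM34 2 only at 3.94% of genes and 13 targets, and any of the 3 kinds at 12.3% of genes and 32 targets. By function, 1 of 20 targets of arrest and feedback had a member, 3 of 22 of apoptosis, 4 of 20 of repair and metabolism, and 1 of 37 others. The lists were drawn up with earlier results of these data known, so these counts are a description.

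RPS27L (chr15:63157193-63157697) ranked highest among the targets by the mean percentile over both lists, though PERP was higher in p53WT 2. The −log10 q of RPS27L was 4.73 in p53WT 2, with a fold of 5.98. In CASM34 2 it was 11.2 with a fold of 8.90, the highest −log10 q of any member in that list. The midpoint lay 32 bp into the gene, the region covers 220 of the 250 bases printed above, and it includes the p53-like match at chr15:63157527-63157546.

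Among the targets of apoptosis, APAF1, the core of the apoptosome, shares a region with IKBIP (chr12:98644521-98644812), with a −log10 q of 4.66 in p53WT 2 and 6.92 in CASM34 2. PERP (chr6:138107156-138107478) was higher in p53WT 2, at 9.01 against 3.48, with its midpoint 102 bp into the gene. TNFRSF10A, a death receptor gene (chr8:23224731-23225023), had 4.52 and 2.41. GADD45A, a stress gene of growth arrest (chr1:67685709-67686639), was the only one of the arrest list, with 3.07 and 6.44, and its midpoint lay 973 bp from an end.

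In repair and metabolism 4 targets had a member. REV3L (chr6:111482627-111483097) had a −log10 q of 3.03 in p53WT 2 and 4.25 in CASM34 2, 849 bp into the gene. ULK2 (chr17:19867387-19868117) had 2.09 and 5.09, 184 bp into the gene. PRKAB2, a subunit of the AMP-activated kinase, shares its region with CHD1L (chr1:147172045-147172436, 2.78 and 1.72). TIGAR, a regulator of glycolysis (chr12:4321213-4321583), had 2.10 and 1.40. Between the lists the −log10 q of the targets thus went both ways. It was higher in p53WT 2 at PERP, TNFRSF10A, PRKAB2 and TIGAR and higher in CASM34 2 at the other 5. By percentile within each list APAF1 was near even (72.0 in p53WT 2 and 71.8 in CASM34 2), and the other targets kept their direction. These values come from a single library of each group and are not scaled for depth, and a difference in binding was not tested.

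Gene classes read from symbols held members at rates around the background, apart from a few. Zinc finger genes were low, with 2 of 557 genes (0.359%, 95% interval 0.0435 to 1.29), ZNF706 and ZNF786, against 1.95% of all genes. In p53WT 2 only the class had 40 (7.18%), near the 7.07% of all genes. Olfactory receptor genes had 0 of 392 and no region in a single number 2 list. Ubiquitin conjugation and deubiquitination genes had 13 of 368 (3.53%, 95% interval 1.89 to 5.97), among them FBXO30, ANAPC13, USP17L17 and RNF217, the last a ring-finger ligase with a −log10 q of 4.50 in p53WT 2 and 4.64 in CASM34 2. Splicing factors and hnRNPs had 6 of 94 (6.38%, 95% interval 2.38 to 13.4). The best-ranked of these by the mean percentile over both lists were SNRNP48, a minor spliceosome gene (4.90 and 4.29), and HNRNPU, a nuclear RNA-binding protein gene (3.81 and 3.83). HNRNPU shares its region with LOC124904588, whose end is nearer, and the midpoint lay 892.5 bp into HNRNPU. SRSF4 (2.78 and 4.32) and SRSF10 (2.82 and 3.46) encode serine-arginine-rich splicing factors. Among members the interval of the ubiquitin class covers the 1.95% of all genes, and USP17L17 is one of the uncertain copies. The ubiquitin and splicing classes were above all genes in the single-list sets too. Ubiquitin genes had 11.1% in p53WT 2 only (against 7.07%) and 6.25% in CASM34 2 only (against 3.94%). Splicing factors and hnRNPs had 9.57% in each.

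Solute carriers had 6 of 391 (1.53%), led by SLC35E2B (8.16 and 3.46), with SLC30A1, a zinc transporter gene (3.73 and 3.46), SLC2A13 (3.68 and 2.98) and SLC25A3, the mitochondrial phosphate carrier (3.73 and 2.57). RAB and ARF GTPases, which direct membrane traffic, had 4 of 108 (3.70%, 95% interval 1.02 to 9.21, against 1.95% of all genes). These were RAB14 (7.46 and 3.15), RAB31 (3.70 and 3.99), RAB23 (3.73 and 3.38) and RAB2A (1.46 and 1.39). The regions of RAB14 and RAB23 are shared with GSN and PRIM2, whose starts are nearer. The class had 3.70% in p53WT 2 only and 2.78% in CASM34 2 only, below the 7.07% and 3.94% of all genes. Cyclins and cyclin-dependent kinases had 3 of 59 (5.08%, 95% interval 1.06 to 14.1): CCNYL1 (5.77 and 1.97), CCNE2, the cyclin E2 gene (2.97 and 2.55), and CDK13 (2.01 and 1.37). The region of CCNE2 is shared with NDUFAF6, whose end is nearer. Chaperones had 3 of 86 (3.49%, 95% interval 0.725 to 9.86), where DNAJC25 and its readthrough gene share 1 region and HSPA6 shares one with FCGR2A (1.40 and 1.91).

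The other classes held 2 or fewer. DEAD and DEAH helicases had 2 of 53, histones 2 of 83, and RNA polymerase, general factors and Mediator 2 of 127. Cytosolic ribosomal proteins had 1 of 80 (RPL7), aminoacyl-tRNA synthetases 1 of 37 (KARS1), the respiratory chain 1 of 88 (NDUFV2), nucleoporins 1 of 26 (RANBP2), and cytokines 1 of 113 (IL7). The regions of RPL7 and KARS1 are shared with RDH10 and TERF2IP, whose ends are nearer. Heat shock and immediate early genes had 1 of 24, JUN (chr1:58783330-58783591), with a −log10 q of 3.07 in p53WT 2 and 4.11 in CASM34 2. Mitochondrial ribosomal proteins (0 of 77), proteasome subunits (0 of 48), translation initiation factors (0 of 55), keratins and collagens (0 of 99) and DREAM-repressed genes of the cell cycle (0 of 37) had none. Lung epithelial (0 of 22), liver (0 of 20) and neuron genes (0 of 20) had none either. For 37 genes the interval of a count of 0 reaches 9.49%, and for the 99 keratins and collagens it reaches 3.66%. The counts of 0 in this paragraph could therefore not be told apart from a rate of 1.95%. In p53WT 2 only, the proteasome list had 9 genes (18.75%) and the DREAM list 6 (16.2%), against 7.07% of all genes.

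**Figure D3:**
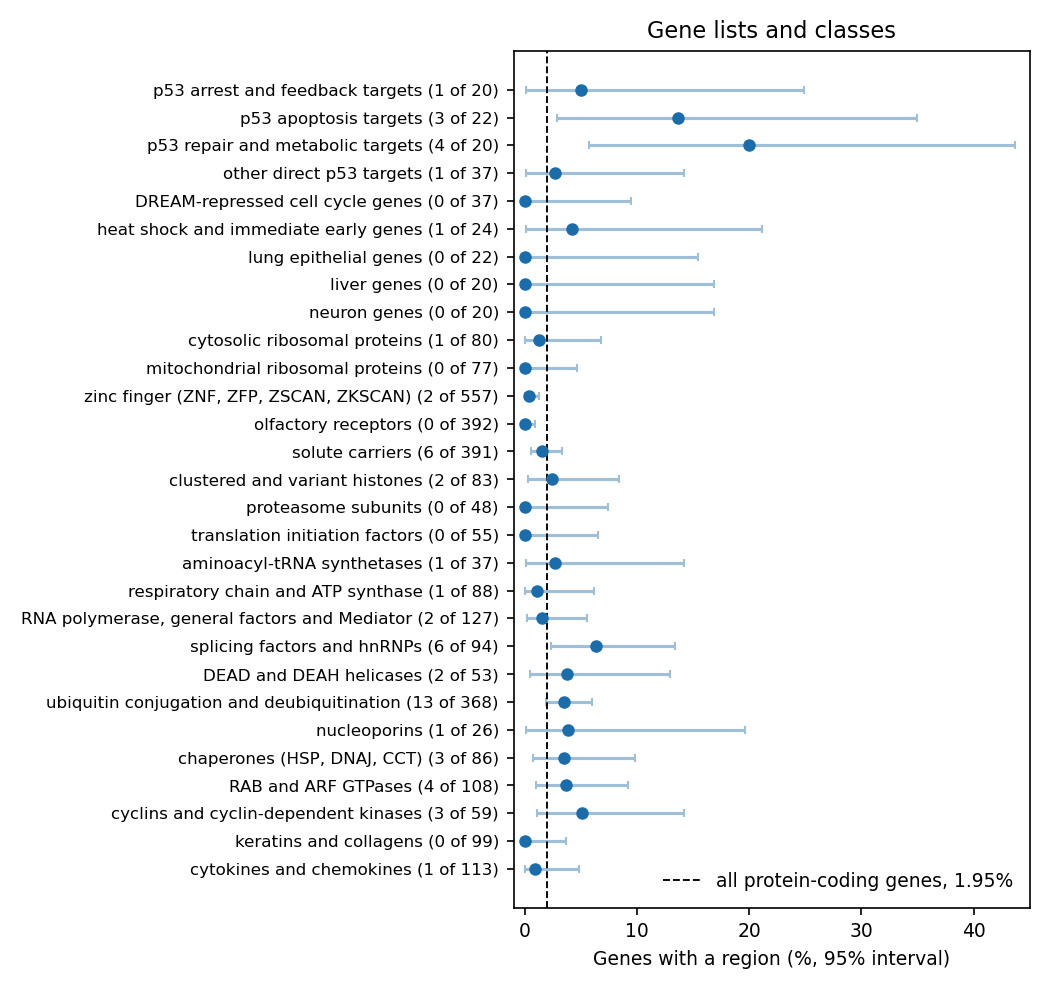
Percent of the genes of each list or class that have a member within 1 kb of an end (points, with exact 95% intervals as bars and the count after each name). The dashed line marks all protein-coding genes, 1.95%, and most intervals cover it.

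Genes at members were long. The median length of the 389 genes was 57.1 kb (quartiles 21.6 and 126 kb), against 24.2 kb over all 19970 genes, 43.7 kb for genes with a region in p53WT 2 only and 44.8 kb for CASM34 2 only. They had a median of 5 RefSeq transcripts against 4 over all genes.

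Some members lay at the starts of more than 1 gene. Among the 252 members with a known start, 33 (13.1%, 95% interval 9.19 to 17.9) had starts of at least 2 protein-coding genes within 1 kb, against 15.1% of all 15811 starts. With higher thresholds or lists of equal length the share stood above that of all starts, at 18.75% (−log10 q at least 3, 80 regions), 27.3% (at least 5, 11 regions) and 21.2% (equal length, 33 regions). In the full lists, 30 members (11.9%) had a pair on opposite strands, against 13.7%. A long non-coding RNA that starts on the opposite strand was annotated within 1 kb at 57 of the 252 (22.6%, 95% interval 17.6 to 28.3), against 10.8% of all starts, 18.4% in p53WT 2 only and 17.3% in CASM34 2 only. In these comparisons the shares of all starts count starts, while those of members and single-list sets count regions. A promoter shared by genes therefore weighs more among all starts, so these shares are not like for like. Whether members lie above or below a like share was not determined, and none was tested.

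Members were unevenly spread over chromosomes. Chromosome 6 held 46 of 339 (13.6%, 95% interval 10.1 to 17.7) and 5.25% of the genes, and chromosome 8 held 44 (12.98%, 95% interval 9.59 to 17.0) and 3.58% of the genes. Chromosome 1 held 31 (9.14%, with 10.3% of the genes), chromosome 12 held 30 (8.85%, with 5.13%) and chromosome 7 held 27 (7.96%, with 4.70%). Chromosome 19, with 7.27% of the genes, held 4 members (1.18%), and chromosomes 13 and X held none, with an upper limit of 1.08% each. Gene-end regions of 1 number 2 list were on chromosome 6 in 8.63% (p53WT 2 only) and 8.44% (CASM34 2 only) and on chromosome 8 in 6.49% and 6.58%. The 250 shared regions away from gene ends had 10.4% on chromosome 8 and 6.0% on chromosome 6.

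**Figure D4:**
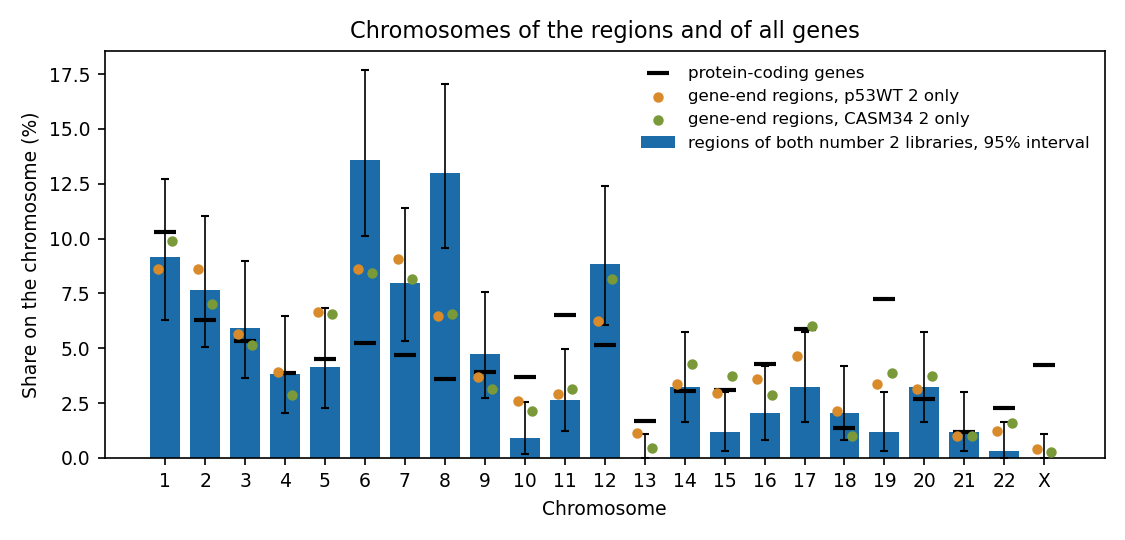
Percent of regions on each chromosome for the 339 members, with exact 95% intervals, beside the percent of protein-coding genes and the gene-end regions of a single number 2 list. Chromosomes 6 (13.6%) and 8 (12.98%) stand highest among the members.

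Within chromosomes 6 and 8 the members lay mostly in the upper coordinates. Above 45 Mb, chromosome 8 had 42 members over 422 genes, or 9.95 per 100 genes, and below it 2 members over 292 genes, or 0.685. The same ratios were 16.1 and 5.82 per 100 genes in p53WT 2 only and 9.005 and 2.74 in CASM34 2 only. On chromosome 6, 30 members lay above 60 Mb (6.83 per 100 genes) and 16 below (2.62). There too the single-list sets had more above than below, with 15.9 against 7.05 per 100 genes in p53WT 2 only and 7.74 against 4.10 in CASM34 2 only. These positions were chosen after the values were seen. In windows of 10 Mb, 6 windows held at least 6 members each, 5 of them between 50 and 100 Mb of chromosome 8 and 1 between 40 and 50 Mb of chromosome 12. They held 41 members (12.1%) and 1.37% of the genes. These windows were picked by their member counts, so a share above that of the genes follows from the choice. The window from 60 to 70 Mb of chromosome 8 held 8 members over 36 genes, including CRH, which encodes corticotropin-releasing hormone, and RAB2A. The window on chromosome 12 included LRRK2, SLC2A13 and TWF1. No member lay in 158 of 313 windows.

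The promoters of members were rich in G, C and CpG. The window from 250 bases before to 50 after the start met the region for 138 members. Its median G + C was 70.7% (quartiles 66.5 and 77), against 62.7% over all 15811 promoters, 71.3% in p53WT 2 only (433 promoters) and 72.7% in CASM34 2 only (176). The ratio of observed to expected CpG had a median of 0.907, against 0.763 over all promoters and 0.904 and 0.9003 in the single-list sets. With at least 55% G + C and a ratio of at least 0.65, 133 of 138 (96.4%, 95% interval 91.7 to 98.8) were CpG-rich, against 57.2% of all promoters, 93.3% in p53WT 2 only and 93.2% in CASM34 2 only.

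**Figure D5:**
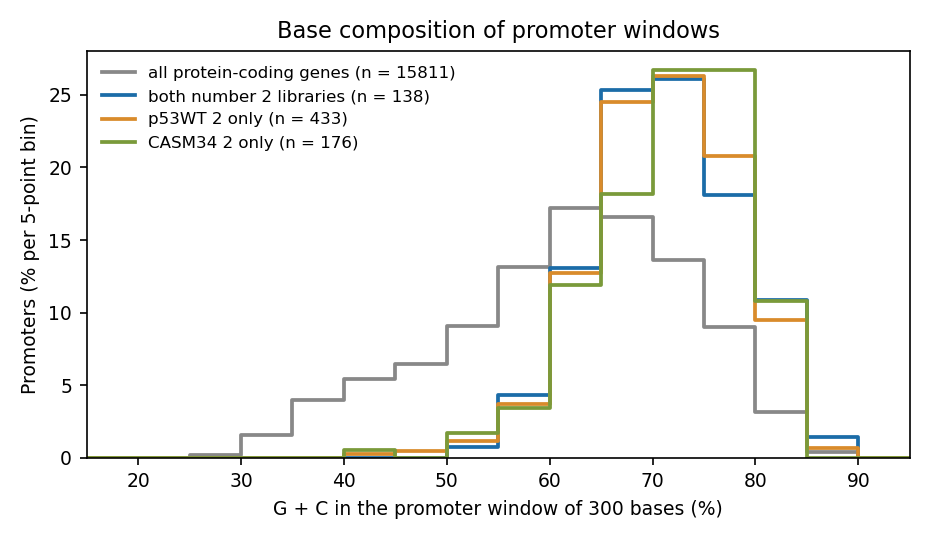
Percent of promoter windows (300 bases) per 5-point bin of G + C content, for all 15811 protein-coding promoters, the 138 windows that meet a member, and those that meet a region of p53WT 2 only (433) or CASM34 2 only (176). The 3 sets of regions overlap each other and lie to the right of all promoters.

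Short motifs were counted in the same windows. Counted on both strands, with overlaps allowed, GGGCGG was in 115 of 138 windows (83.3%), against 58.5% of all promoters and 82.2% and 82.4% in the single-list sets. TATAAA was in 2 (1.45%, at PPIA and SLC10A4), against 9.64% of all and 1.85% and 2.27% in the single-list sets. CCAAT was in 38 (27.5%) against 36.3%, with 32.1% and 23.3% in those sets. CCGGAAG, the core of ETS factor sites, was in 24 (17.4%) against 14.2%, with 16.4% and 19.3%. CACGTG was in 21 (15.2%, 95% interval 9.67 to 22.3) against 8.87%, with 11.1% and 9.09%. TGACGTCA was in 4 (2.90%) against 2.59%, with 4.39% and 3.98%, and GCATGCG in 8 (5.80%) against 5.14%, with 4.62% and 3.98%. A match says only that the letters are there.

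In the promoter windows, matches to the p53 response element were found at a share near that of all promoters. The windows stop shortly after the start. Among the 252 members with a known start, median summits lay 210 bp (p53WT 2) and 230 bp (CASM34 2) into the gene. Sequence under the peaks beyond the windows was not searched, so the share describes promoter windows and not the bound regions as a whole. The element was sought as 2 half-sites with their central C and G fixed, at most 13 bases apart and with at most 3 mismatches over 20 positions. It was in 17 of 138 windows (12.3%, 95% interval 7.34 to 19.0), against 12.7% of all promoters, 8.55% in p53WT 2 only and 9.66% in CASM34 2 only. Of these 17, 15 had 3 mismatches and 7 lay inside the region, RPS27L and LRRK2 among them. With at most 2 mismatches there were 2 (1.45%), against 2.65% of all promoters. The closest match, with 1 mismatch and no spacer, stood before LOC124901228 at chr6:63573713-63573732, outside its region (chr6:63572792-63573612). That region, which LGSN shares, had a −log10 q of 6.69 in p53WT 2 and 6.80 in CASM34 2, and the match is shown whole, in capitals.
LOC124901228: GGACAAGACTAGACTTGTTC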

How the data were processed

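The deposited lists hold peaks per library on GRCh38. Bowtie2, Trim Galore and bedtools are named in the submitters' processing notes. The caller of the peaks, its threshold and any control are not given in the sources used. Per the file contents, the authors deposited for each peak a score, a fold (ratio of signal over background), a −log10 p, a −log10 q and a summit offset. The smallest −log10 q corresponded to a q-value of 0.05. Duplicate intervals within a list were reduced to the row of the highest −log10 p. Genes, starts and promoters came from RefSeq tables (GRCh38.p14), with strand for 15811 of 19970 protein-coding genes. No genome sequence was used, so sequence under peaks outside promoter windows was not analysed here.

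Regions were merged, placed and counted with Python 3.11.15, pandas 2.3.3, numpy 2.4.6 and scipy 1.17.1. The merging was tested on simulated peaks. Members were selected on the peak calls, so no test was run, and gene lists (9 lists with 223 entries, 20 classes by symbol and the union of 4 lists of p53 targets) are given as counts. The members and lists were chosen with earlier results of these data known. The named genes are the 12 best-ranked members, all members at p53 targets, heat shock or DREAM genes, up to 4 per class with at least 3 genes, the 5 best with starts of 2 genes, those at a gene end only (at most 5), the 2 on each side of the 1 kb limit and the 5 lowest-ranked. An item that the rule names is not reported here. Other genes were named after their values were seen. Alternatives were thresholds, distances, merging, equal list lengths and leaving out each library.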

Additional observations from a re-analysis of the deposited data

How the results depend on the processing

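Of 54 recomputed values, 35 stayed within the limits set and 19 moved. With peaks of −log10 q at least 3, the 339 members became 113, the 389 genes 137, and the share with starts of 2 or more genes 18.75% in place of 13.1%. At a −log10 q of at least 5 there were 15 members, 20 genes and 0 p53 targets in place of 9, with 100% at a start and 27.3% with starts of 2 or more genes (11 regions). With each list cut to its 1591 highest peaks there were 46 members, 58 genes and 2 targets, with 100% and 21.2% (33 regions). Leaving out each library with its condition gave 353 to 1650 members, 404 to 1779 genes, 9 to 21 p53 targets, a start share of 96.8% to 98.5% and a share with starts of 2 or more genes of 10.2% to 13.3%. The higher counts came without p53WT 2 (1041 members) or CASM34 2 (1650), by construction, since only 1 number 2 list then has to hold the peak. Distances of 500 bp and 2 kb gave 270 and 359 members, and merging peaks up to 500 bp apart gave 405. Read depth is unknown and limits what the absence of a peak shows. No paired analysis was possible because no test was run on these regions.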
